A study of Mus musculus with 9 samples.

Results

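The Paneth cell genes described here are 9 of the 23955 gene symbols in a count table of mouse gut organoids: Lyz1, Mmp7, Ang4, Itln1, Defa-rs7, Defa17, Defa21, Defa22 and Defa24. They were chosen with earlier results of these data known, and their rows were found by symbol. All 9 have a row. RNA-seq was performed on 9 samples in 3 groups of 3, which the design text calls biological replicates. MIN organoids were grown from the normal-appearing gut epithelium of APCmin/+ mice, which carry 1 mutated copy of the tumor suppressor gene Apc, and Adenoma organoids from their adenomatous polyps. Sulindac organoids were grown from such polyps and exposed to sulindac, a non-steroidal anti-inflammatory drug whose dose and duration are not given in the sources used here. All 3 groups thus came from APCmin/+ mice, so no comparison is with wild-type tissue, and all were kept in medium with Noggin, EGF, bFGF, R-spondin1 and B27. The age of the mice, the segment of gut and whether replicates came from separate mice are likewise not given, so p-values measure the spread between these samples.

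Paneth cells are secretory cells at the base of the small intestinal crypts, where they lie between the Lgr5-positive stem cells. They store granules of antimicrobial proteins, above all lysozyme and the alpha-defensins (called cryptdins in mice), and supply stem cells with signals such as Wnt3, EGF and Notch ligands. Wnt signaling through beta-catenin and TCF factors drives their maturation, and Apc restrains that same pathway. In mice the metalloproteinase matrilysin, encoded by Mmp7, cuts the alpha-defensin precursors into their active form, and Mmp7 is also known as a Wnt target that intestinal adenomas express.

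Promoter sequences are shown for 2 defensins, Mmp7 and Lyz1, since Mmp7 and the others went in opposite directions between MIN and Adenoma. RefSeq (GRCm38.p6) gave a promoter for 6 of the 9 genes, not for Defa17, Defa24 and Defa-rs7. Each run is the 250 bases before the start of transcription on the gene's strand. Capitals mark TCAAAG (either strand), a form of the core site that TCF factors bind, and TATAAA (gene strand only), the TATA box. The 250 bases of Defa21 (chr8:21025295-21025544, plus strand) and Defa22 (chr8:21162027-21162276, plus strand) are identical at 250 of 250 positions, so they are printed once beside those of Mmp7 (chr9:7691840-7692089, plus strand) and Lyz1 (chr10:117292869-117293118, minus strand).
Defa21 and Defa22: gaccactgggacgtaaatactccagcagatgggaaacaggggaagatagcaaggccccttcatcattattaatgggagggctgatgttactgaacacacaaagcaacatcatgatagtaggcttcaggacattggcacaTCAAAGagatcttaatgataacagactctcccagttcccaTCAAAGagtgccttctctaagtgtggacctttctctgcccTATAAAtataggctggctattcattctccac
Mmp7: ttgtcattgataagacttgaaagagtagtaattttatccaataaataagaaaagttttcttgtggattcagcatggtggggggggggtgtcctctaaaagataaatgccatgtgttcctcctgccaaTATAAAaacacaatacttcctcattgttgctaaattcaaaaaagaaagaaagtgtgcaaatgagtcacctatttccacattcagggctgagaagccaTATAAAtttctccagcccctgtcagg
Lyz1: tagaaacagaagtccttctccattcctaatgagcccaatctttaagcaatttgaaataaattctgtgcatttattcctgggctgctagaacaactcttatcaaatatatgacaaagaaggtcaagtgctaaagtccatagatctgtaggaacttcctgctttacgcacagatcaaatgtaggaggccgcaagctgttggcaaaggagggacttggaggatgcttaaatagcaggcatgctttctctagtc

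The defensin promoters held TCAAAG at 111 and 71 bases before the start and TATAAA at 31 bases. Mmp7 held TATAAA at 123 and 26 bases and no TCAAAG in these 250 bases. A second RefSeq start of Mmp7, whose window (chr9:7692091-7692340) lies downstream of the one printed and whose first bases were not found in the GENCODE transcript, held TCAAAG at 246 bases before that start. Lyz1, Ang4 and Itln1 held neither, and CAGCTG, an E-box that basic helix-loop-helix factors can bind, was in 0 of the 6. Of the 32851 promoter windows of the same length in the table, 13.8% held TCAAAG, 7.59% held TATAAA and 13.0% held CAGCTG (both strands). A match describes letters in a window and is no measured binding site. Only these exact letters were searched for, so a window without them can still hold a variant of such a site.

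In MIN organoids 4 of these genes were among the most abundant of the whole table. Ranked by mean CPM (counts relative to the library total, scaled by the TMM method of edgeR over all 9 samples), Lyz1 was 4th of 23955 symbols, Defa17 5th, Itln1 6th and Defa24 7th, while Defa22 was 204th, Defa-rs7 303rd, Defa21 323rd, Ang4 988th and Mmp7 1018th. The 9 genes together took 1.68% to 1.92% of all counts in the 3 MIN samples, 0.0995% to 0.134% in Adenoma and 0.0184% to 0.0266% in Sulindac. Most of the share in Adenoma and Sulindac was Mmp7, and without it the 8 other genes took 1.66% to 1.90% in MIN, 0.0336% to 0.0502% in Adenoma and 0.0062% to 0.00947% in Sulindac. The MIN organoids thus carried the defining Paneth cell transcripts lysozyme and alpha-defensins at high levels. In bulk samples, fewer Paneth cells and less RNA per cell cannot be told apart.

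Libraries held 30881206 to 48412477 counts, so that 3 counts, taken as the floor of detection for counting error only, equal 0.0641 to 0.1 CPM. Groups were compared by the quasi-likelihood test of edgeR, with p-values adjusted after Benjamini and Hochberg over all genes tested, at a false discovery rate (FDR) of 1%. Fold changes below are on the log2 scale with the standard error (SE). The median of all genes lay at -0.01, -0.01 and -0.03 for Adenoma over MIN, Sulindac over Adenoma and Sulindac over MIN, and scaling by library size alone moved it to 0.12, -0.18 and -0.05. Each pair of comparisons shares 1 group of samples (Adenoma, MIN or Sulindac), so the 3 are not independent.

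Between MIN and Adenoma, 8 of the 9 genes fell and Mmp7 rose. Defa-rs7 passed the filter that drops low counts through MIN alone, so its call could hardly be other than lower. Reads of the defensin members can fit several defensin rows, so their calls are not separate evidence in any comparison. At the 1% FDR, 20.1% of the 13744 genes tested were lower in Adenoma and 18.5% were higher. The members' median log2 fold change was -6.16. The 8 genes that fell did so without overlap between the groups, and 32.2% of all genes tested lay lower without overlap. Mmp7 rose without overlap, and 30.7% of genes lay higher in that way.

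**Figure D1:**
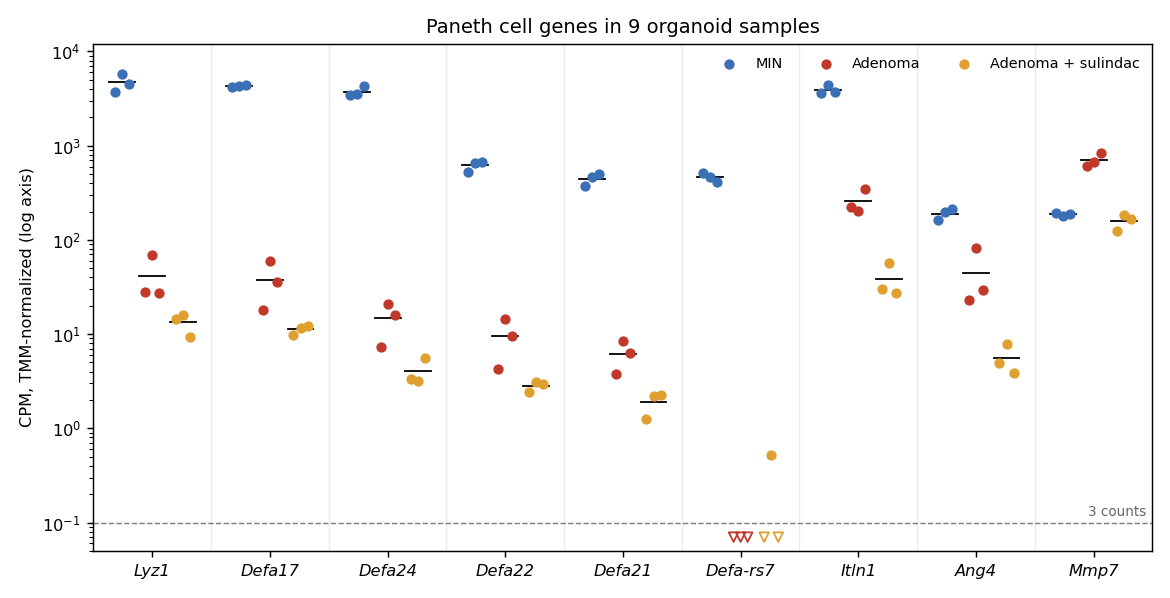
Expression of the 9 Paneth cell genes in each of the 9 samples, as CPM on a log axis. Points are samples, short black lines are means of 3, open triangles are samples with 0 counts, and the dashed line marks 3 counts in the sample where they weigh most. Mmp7 is highest in Adenoma (604 to 833 CPM), whereas the other genes are highest in MIN.

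Lyz1 encodes the lysozyme of Paneth cell granules, which cuts the bacterial cell wall. Its level was 3741, 5751 and 4566 CPM in MIN replicates 1 to 3, 27.8, 69.5 and 27.2 CPM in Adenoma, and 14.6, 16.1 and 9.34 CPM in Sulindac. All MIN samples lay far above all others, and Adenoma replicate 2 stood above the rest of its group. From MIN to Adenoma the mean fell from 4686 ± 1010 (SD, n = 3) to 41.5 ± 24.2 CPM (SD, n = 3), 113-fold, with a log2 fold change of -6.82 (SE 0.46, adjusted p = 5.38e-06, edgeR). With sulindac the mean was 13.3 ± 3.55 CPM (SD, n = 3), 3.11-fold below Adenoma without overlap, but the log2 fold change of -1.64 (SE 0.38) missed the threshold (adjusted p = 0.0117, edgeR). Lyz2, the lysozyme of macrophages, shares 16.1% of the 50-base stretches of the Lyz1 transcript, yet its row held 13 to 23 counts in MIN and 0 or 1 elsewhere.

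The 5 alpha-defensin members encode peptides that break bacterial membranes. Their genes lie together on chromosome 8, from Defa21 at chr8:21025545-21026516 to Defa24 at chr8:21734494-21735471 (GRCm38, plus strand, the annotation used for sequences here, whereas the counts were made on mm9). Their transcripts are so alike that a read often fits several. All 328 stretches of 50 bases in Defa-rs7 (now named Defa31) also occur in Defa23, 92.0% of those in Defa17 occur in Defa3, 72.9% of those in Defa21 occur in Defa22, and 28.1% of those in Defa24 occur in other genes. The levels of single defensins therefore depend on how the authors' counting split shared reads. The last 105 coding bases before the stop codon, which encode most of the mature peptide, show how few bases separate them. Capitals mark bases of Defa17 and Defa-rs7 that differ from Defa24 at the same position (7 and 6 bases), and the 1 base of Defa21 that differs from Defa22.
Defa24: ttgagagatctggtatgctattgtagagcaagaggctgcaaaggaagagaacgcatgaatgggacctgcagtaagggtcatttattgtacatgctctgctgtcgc
Defa17: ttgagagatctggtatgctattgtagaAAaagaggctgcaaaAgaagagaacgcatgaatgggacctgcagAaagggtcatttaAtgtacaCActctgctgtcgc
Defa-rs7: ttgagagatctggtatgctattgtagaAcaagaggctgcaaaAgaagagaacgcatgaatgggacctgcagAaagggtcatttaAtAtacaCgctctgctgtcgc
Defa22: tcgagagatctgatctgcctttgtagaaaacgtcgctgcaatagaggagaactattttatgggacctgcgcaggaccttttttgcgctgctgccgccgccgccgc
Defa21: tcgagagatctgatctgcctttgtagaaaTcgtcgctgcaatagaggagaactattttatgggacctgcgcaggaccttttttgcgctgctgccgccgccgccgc

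Over the whole coding sequence, Defa21 and Defa22 matched at 280 of 282 bases (99.3%), Defa17 and Defa-rs7 at 276 (97.9%) and Defa17 and Defa24 at 270 (95.7%). Defa17 and Defa21, from the 2 sequence groups, matched at 81.6%.

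Defa17 was the most abundant defensin, at 4229, 4253 and 4359 CPM in MIN, 18.2, 59.1 and 35.6 CPM in Adenoma, and 9.77, 11.7 and 12.2 CPM in Sulindac. The MIN samples differed little among themselves (coefficient of variation 1.62%), and the Adenoma samples much (54.6%). Its log2 fold change was -6.83 (SE 0.45, adjusted p = 4.36e-06, edgeR) from MIN to Adenoma and -1.74 (SE 0.36, adjusted p = 0.00759, edgeR) with sulindac.

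Defa24 fell furthest of the defensin members still counted in Adenoma. It was at 3419, 3545 and 4302 CPM in MIN, 7.39, 20.8 and 16.1 CPM in Adenoma, and 3.33, 3.18 and 5.56 CPM in Sulindac, and no groups overlapped. Its mean was 254-fold lower in Adenoma than MIN (log2 fold change -7.99, SE 0.43, adjusted p = 1.37e-06, edgeR) and 3.67-fold lower in Sulindac than Adenoma (-1.86, SE 0.38, adjusted p = 0.00687, edgeR).

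Defa21 and Defa22 ran in parallel at lower levels. Defa21 was at 370, 464 and 496 CPM in MIN, 3.74, 8.55 and 6.33 CPM in Adenoma, and 1.27, 2.2 and 2.24 CPM in Sulindac. Defa22 was at 526, 661 and 664 CPM in MIN, 4.27, 14.6 and 9.57 CPM in Adenoma, and 2.40, 3.09 and 2.94 CPM in Sulindac. In both genes the 3 groups stood apart in the same order, and Adenoma replicate 1 was the lowest of its group. The log2 fold changes from MIN to Adenoma were -6.16 (SE 0.31) and -6.02 (SE 0.42), with adjusted p = 9.84e-07 and 6.74e-06 (edgeR). With sulindac they were -1.69 (SE 0.34, adjusted p = 0.00659, edgeR) for Defa21 and -1.75 (SE 0.39, adjusted p = 0.0106, edgeR) for Defa22, on either side of the threshold. The counts of Defa21 were 0.703 to 0.747 of those of Defa22 in MIN, 0.586 to 0.875 in Adenoma and 0.528 to 0.762 in Sulindac.

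Defa-rs7 was counted 21229, 21498 and 15084 times in MIN and 0 times in each Adenoma sample. In Sulindac the counts were 0, 17 and 0, all in replicate 2. Against a floor of 3 counts per library, the MIN mean of 462 ± 52.9 CPM (SD, n = 3) was at least 5443-fold higher than Adenoma (adjusted p = 1.41e-07, edgeR). Since none of its 50-base stretches is its own, this zero is that of a row and not of a transcript told apart from its copies. The low-count filter left Defa-rs7 untested between Sulindac and Adenoma. In both comparisons with MIN it passed through its MIN counts alone, so its calls could hardly be other than lower.

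The sum over all 18 rows named Defa does not depend on how reads were split among them. It was 13757, 14890 and 15851 CPM in MIN, 1.38% to 1.52% of all counts. It was 52.5, 149 and 100.01 CPM in Adenoma, and 23.1, 28.8 and 33.3 CPM in Sulindac. As a single row in the fit, the sum fell by 7.20 on the log2 scale from MIN to Adenoma (SE 0.43, adjusted p = 2.42e-06, edgeR) and by 1.82 with sulindac (SE 0.33, adjusted p = 0.00423, edgeR). Without Adenoma replicate 3, or without any 1 of the Sulindac samples, the second change missed the threshold (adjusted p = 0.0164 to 0.0216, edgeR), and it was between -2.13 and -1.41 over all samples left out in turn. Of the other 13 Defa rows, Defa2, Defa23 and Defa5 were the highest. Between Adenoma and MIN 8 were tested, and all 8 were called lower (median log2 fold change -7.63). Another 14 rows carry older names of alpha-defensin genes, and 13 of the 13 tested were called lower (median -6.86), against 20.1% of all genes. Most of these rows passed the low-count filter through their MIN counts alone, so a row tested could hardly be other than lower. They also share reads, so these counts are no separate evidence. With sulindac, 2 of 3 and 5 of 6 of these rows tested were called lower than in Adenoma, against 9.10% of all genes. Defa23 (-1.66) and the older-named Gm14851 (-1.60) also fell but missed the threshold. From MIN to Sulindac 8 of 8 and 13 of 13 were called lower, against 26.8% of all genes, with the same limit from the filter.

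The defensin rows did not fall in proportion. Defa17 took 28.9 ± 1.65% (SD, n = 3) of the Defa counts in MIN, 36.6 ± 2.63% in Adenoma and 40.0 ± 2.81% in Sulindac. Defa24 took 25.3 ± 1.70%, 14.7 ± 1.22% and 14.1 ± 2.85%, so that its share in each MIN sample lay above that in every other sample. The shares of Defa21 and Defa22 went the other way, from 2.98 ± 0.25% to 6.39 ± 0.696% and from 4.15 ± 0.31% to 9.15 ± 0.894% between MIN and Adenoma. There were 1.01 to 1.24 counts of Defa17 per count of Defa24 in MIN, 2.21 to 2.84 in Adenoma and 2.2 to 3.69 in Sulindac. These shares carry the uncertainty of split reads, and its part in them was not tested.

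**Figure D2:**
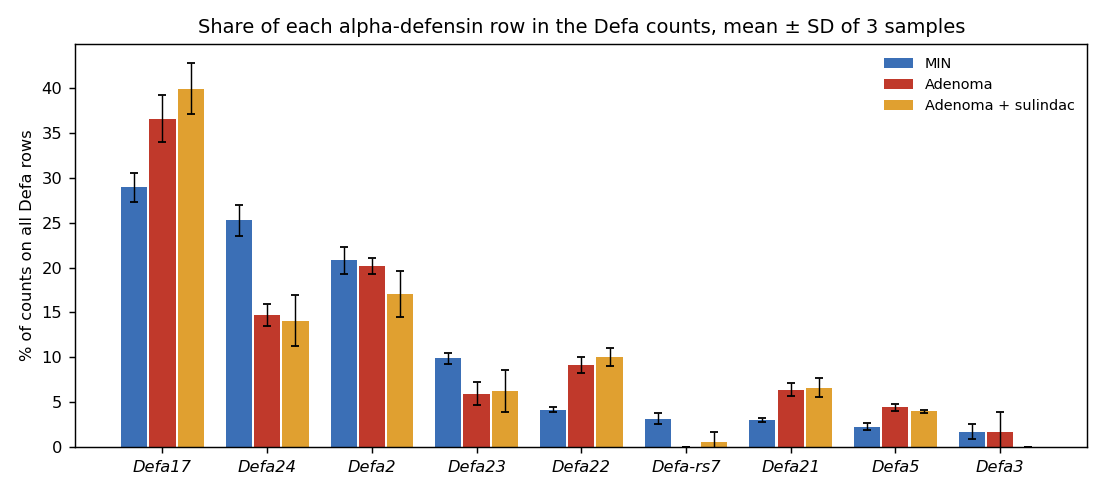
Share of each alpha-defensin row in the counts of all Defa rows, for rows above 1% in any group, as the mean of 3 samples with SD bars. Defa24 takes 25.3% in MIN and 14.7% in Adenoma, and Defa17 takes 28.9% and 36.6%.

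Itln1 encodes intelectin, a lectin that binds sugars of microbes and is made by Paneth and goblet cells. It was at 3609, 4376 and 3702 CPM in MIN, 224, 204 and 348 CPM in Adenoma, and 30.04, 56.7 and 27.6 CPM in Sulindac. The groups formed 3 separate steps. The log2 fold change was -3.91 (SE 0.24, adjusted p = 3.05e-06, edgeR) from MIN to Adenoma, and -2.76 (SE 0.30, adjusted p = 4.85e-04, edgeR) from Adenoma to Sulindac. Itln1 had 0.761 to 0.965 counts per count of Lyz1 in MIN, 2.94 to 12.8 in Adenoma and 2.06 to 3.52 in Sulindac.

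Ang4 encodes angiogenin 4, a secreted ribonuclease with activity against bacteria. It was at 163, 196 and 212 CPM in MIN, 22.9, 81.3 and 29.3 CPM in Adenoma, and 4.97, 7.92 and 3.90 CPM in Sulindac. Its fall from MIN to Adenoma was the smallest of the 8 (log2 fold change -2.10, SE 0.43, adjusted p = 0.00317, edgeR), with replicate 2 again the highest of the Adenoma samples. Without Adenoma replicate 3 or MIN replicate 3 the adjusted p was 0.0240 and 0.0109 (edgeR), and without Adenoma replicate 2 the log2 fold change was -2.86. From Adenoma to Sulindac it was -2.99 (SE 0.50, adjusted p = 0.00285, edgeR), a call lost without any 1 of the Sulindac samples (adjusted p = 0.0102 to 0.0174, edgeR). Ang4 had 0.0341 to 0.0465 counts per count of Lyz1 in MIN, 0.823 to 1.17 in Adenoma and 0.341 to 0.491 in Sulindac.

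Mmp7 (chr9:7692090-7699585, plus strand, GRCm38) parted from the rest. It was at 193, 181 and 189 CPM in MIN, 604, 676 and 833 CPM in Adenoma, and 123, 183 and 165 CPM in Sulindac. Every Adenoma sample lay above every other sample, whereas MIN and Sulindac overlapped. The mean was 3.76-fold higher in Adenoma than MIN (log2 fold change 1.91, SE 0.14, adjusted p = 9.54e-06, edgeR) and 4.48-fold lower in Sulindac than Adenoma (-2.16, SE 0.17, adjusted p = 1.48e-04, edgeR). Between Sulindac and MIN the log2 fold change was -0.26 (SE 0.13, adjusted p = 0.12, edgeR), and leaving out single samples moved it from -0.37 to -0.11. In rank of mean CPM, Mmp7 went from 1018th in MIN to 147th in Adenoma and 1230th in Sulindac. There were 0.0314 to 0.0516 counts of Mmp7 per count of Lyz1 in MIN, 9.73 to 30.6 in Adenoma and 8.44 to 17.7 in Sulindac.

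Of its 50-base stretches, 7.36% also occur in AV064505, a non-coding RNA annotated on the opposite strand across the start of Mmp7. It has no row in the table, and the sources used here do not say whether strand was used in counting, so reads of the pair cannot be told apart there. Among the 23 genes named Mmp with a number, 9 were tested between Adenoma and MIN, and 5 rose (Mmp7, Mmp11, Mmp14, Mmp20 and Mmp24) while 1 fell (Mmp17), the last 3 named after their values were seen, against 18.5% of all genes higher and 20.1% lower. Besides Mmp7, the highest in Adenoma were Mmp14, Mmp15 and Mmp11. Mmp14, a membrane-bound collagenase, rose from 5.96 to 117 CPM (log2 fold change 4.30) and fell with sulindac to 53.6 CPM (-1.12). Mmp11 rose from 0.686 to 12.3 CPM (4.14), and Mmp15 was at 45.3 and 54.3 CPM (0.26, adjusted p = 0.078, edgeR). With sulindac 3 of 8 tested fell (Mmp7, Mmp14 and Mmp20) and 1 rose (Mmp28), against 9.10% and 8.32% of all genes. Between Sulindac and MIN 4 of 9 were higher and 2 lower, against 23.0% and 26.8% of all genes. Mmp20, chosen after its values were seen, is the gene next to Mmp7 on the same strand, ending 17110 bases before its start. It was counted 70, 52 and 64 times in MIN, 123, 116 and 100 times in Adenoma, and 7, 16 and 14 times in Sulindac. That is the order of Mmp7 at a far lower level, with Sulindac also below MIN (log2 fold change -1.99). The annotated span of AV064505 also covers the end of Mmp20, and the stretches they share were not computed.

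Between Sulindac and untreated Adenoma, 8 of the 9 genes were tested, and none was higher with sulindac. The log2 fold change was below 0 for all 8, and 6 of the 8 passed the 1% FDR (Mmp7, Ang4, Itln1, Defa17, Defa21 and Defa24), whereas 9.10% of the 12962 genes tested were lower and 8.32% higher. None of the 8 was higher at an unadjusted p under 0.05 in edgeR or at the 1% FDR in DESeq2, which called 8 lower. The median log2 fold change of the 8 was -1.80. In all 8 every Sulindac sample lay below every Adenoma sample, as it did in 26.0% of all genes tested. The calls for Mmp7 and Itln1 held with each sample left out, and those for the others did not: the count of members called was 2 without any 1 of the Sulindac samples, 3 without Adenoma replicate 2 or 3, and 8 without Adenoma replicate 1.

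**Figure D3:**
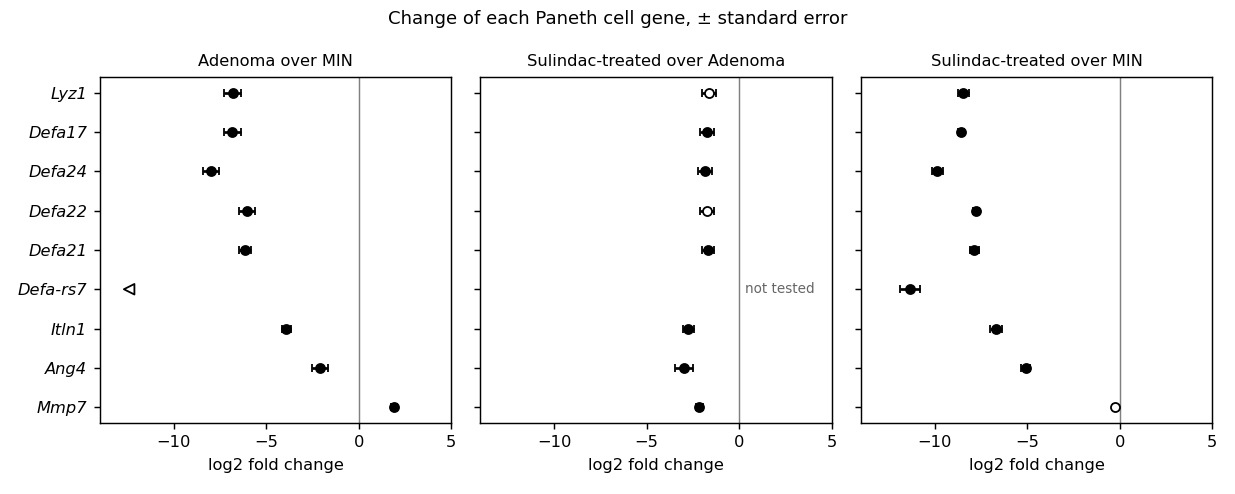
log2 fold change of each Paneth cell gene with its SE (bars) in the 3 comparisons. Filled circles passed the 1% FDR, open circles did not, and the open triangle for Defa-rs7 is a bound from the floor of 3 counts. Mmp7 rises by 1.91 and falls by 2.16, and the values of the other genes lie below 0 wherever they were tested, though Lyz1 and Defa22 missed the threshold in Sulindac over Adenoma.

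Compared with MIN, sulindac-treated Adenoma organoids were lower in 8 of the 9 genes, against 26.8% of the 13551 genes tested, and higher in 0 (23.0% of genes). No member was higher at an unadjusted p under 0.05 in edgeR or at the 1% FDR in DESeq2. In these 8 every Sulindac sample lay below every MIN sample, as it did in 36.0% of genes. The log2 fold changes were -8.46 for Lyz1, -8.57 for Defa17, -9.86 for Defa24, -7.86 for Defa21, -7.78 for Defa22, -6.68 for Itln1 and -5.10 for Ang4, with SE from 0.15 to 0.32. Defa-rs7 was 2669-fold lower in the means, on 17 counts in 1 Sulindac sample. It passed the low-count filter through its MIN counts alone, so its call could hardly be other than lower. The median over the 9 genes was -7.86.

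Per kilobase of the longest annotated transcript, the order of levels changed between the groups. In MIN it was Defa17 (10783 CPM per kilobase), Defa24 (8963), Lyz1 (3710), Itln1 (3414), Defa22 (1472), Defa-rs7 (1226), Defa21 (1061), Ang4 (269) and Mmp7 (176). The ranges over the 3 samples overlapped between Lyz1 and Itln1, between Defa22 and Defa-rs7, and between Defa-rs7 and Defa21, so that the order within these pairs is not resolved. In Adenoma Mmp7 came first (659 CPM per kilobase, 566 to 780), followed by Itln1 (227, 179 to 305) and Defa17 (94.8, 45.8 to 149), with no overlap between these 3. In Sulindac Mmp7 was again first (147), above Itln1 (33.4) and Defa17 (28.3), which overlapped. Mmp7 thus went from the last place to the first.

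Within the Adenoma group, replicate 2 was the highest for 6 of the 9 genes and replicate 1 for 0. Defa-rs7 had 0 counts in that group. Among the 6 were Defa17, Defa21, Defa22 and Defa24, whose reads can fit several defensin rows, so the 6 are not separate. In Sulindac, replicate 2 was the highest for 6 of 9. The spread of the members in Adenoma was wide, with a coefficient of variation of 71.9% for Ang4, 58.3% for Lyz1, 46.1% for Defa24 and 30.04% for Itln1, against 16.6% for Mmp7.

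Over the 9 samples, the genes whose log2(CPM + 0.5) followed Lyz1 most closely of 13861 compared were Pou2f3 (Pearson r 0.998), Mnx1, Tpsg1, Hnf4g and Spink4 (0.995). Defa17 was 7th in that order (0.995) and Mmp7 was 7955th (-0.24). Those closest to Mmp7 were Ctps2 (0.989), Slc35f2, Tmem44, 4933430I17Rik and Slc27a3 (0.984). These values describe 9 points that form 3 groups, so any gene with a like pattern of group means scores high. Pou2f3, Mnx1 and Tpsg1 had means under 0.5 CPM in Adenoma and in Sulindac, where the 0.5 added to each value compresses differences.

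Other products and signals of Paneth cells fell with the members for the most part. Of 30 listed, 28 had a row and 24 were tested between Adenoma and MIN. Of these, 16 were lower, 3 higher and 5 not called (median log2 fold change -2.49), against 20.1% of all genes lower and 18.5% higher. Lyz2, Reg3a, Reg3b, Reg3g, Mptx1 and Mptx2 passed the low-count filter through their MIN counts alone, so they could hardly be other than lower. Reg3a, of a family of antimicrobial lectins, was counted 788 to 2205 times in MIN and 0 times in Adenoma. Its relatives Reg3b and Reg3g fell from 9.53 to 0.104 CPM and from 28.2 to 0.141 CPM. The pentraxin rows Mptx1 and Mptx2 went from 42 to 114 and 273 to 692 counts in MIN to at most 1 and 0 in Adenoma. Spink4 fell from 661 to 7.17 CPM (log2 fold change -6.52) and Guca2b, the peptide uroguanylin, from 93.4 to 6.92 CPM (-3.75). Among the niche signals, Wnt3 fell from 16.6 to 1.77 CPM (log2 fold change -3.22) and further to 0.208 CPM with sulindac (-3.07). The 3 higher genes, named after their values were seen, were Pla2g2a, a secreted phospholipase (33.7 to 100.5 CPM), Cd24a, a surface protein of Paneth cells (465 to 892 CPM), and Tgfa, an EGF receptor ligand (41.8 to 70.8 CPM). Pla2g2a, like Mmp7, was lower with sulindac than in Adenoma, at 1.77 CPM (log2 fold change -5.81, SE 0.39). With sulindac, 8 of 18 tested were lower and 1 higher than in Adenoma, against 9.10% and 8.32% of all genes. Relative to MIN, 18 of 24 were lower and 1 higher, against 26.8% and 23.0% of all genes, with the same limit from the filter.

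The transcription factors and receptors that govern the Paneth cell fate included genes called in each direction. Of 12 tested, 4 fell and 2 rose from MIN to Adenoma, when 20.1% and 18.5% of all genes did. Atoh1, the factor that commits cells to the secretory lineage, was at 16.5 ± 1.25 CPM in MIN and 1.52 ± 0.555 CPM in Adenoma (SD, n = 3 each; log2 fold change -3.43). Spdef, which acts below Atoh1 in goblet and Paneth cells, went from 15.4 to 0.395 CPM (-5.26), and Gfi1, which keeps secretory precursors from the endocrine fate, from 6.92 to 3.33 CPM (-1.05). The Wnt receptor Fzd5, needed for Paneth cell maturation, fell by 3.12 on the log2 scale. In contrast Sox9, a Wnt-dependent factor without which Paneth cells do not form, rose from 64.1 to 171 CPM (log2 fold change 1.42), and Ephb3, the receptor that holds Paneth cells at the crypt base, from 66.3 to 112 CPM (0.76, adjusted p = 0.00983, edgeR). With sulindac 4 fell and 3 rose, against 9.10% and 8.32% of all genes. Bhlha15, which builds up the secretory machinery, had not differed between MIN and Adenoma beyond the spread (42.5 and 40.4 CPM) and fell to 2.76 CPM (log2 fold change -3.87, SE 0.33), and Gfi1 fell by another 1.94. Ephb3 and Hes1 fell by 0.80 and 0.57, while Fzd5, Klf4 and Tcf7l2 rose by 0.90, 0.98 and 0.49. Relative to MIN, 7 were lower in Sulindac and 2, Sox9 and Klf4, higher, against 26.8% and 23.0% of all genes.

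**Figure D4:**
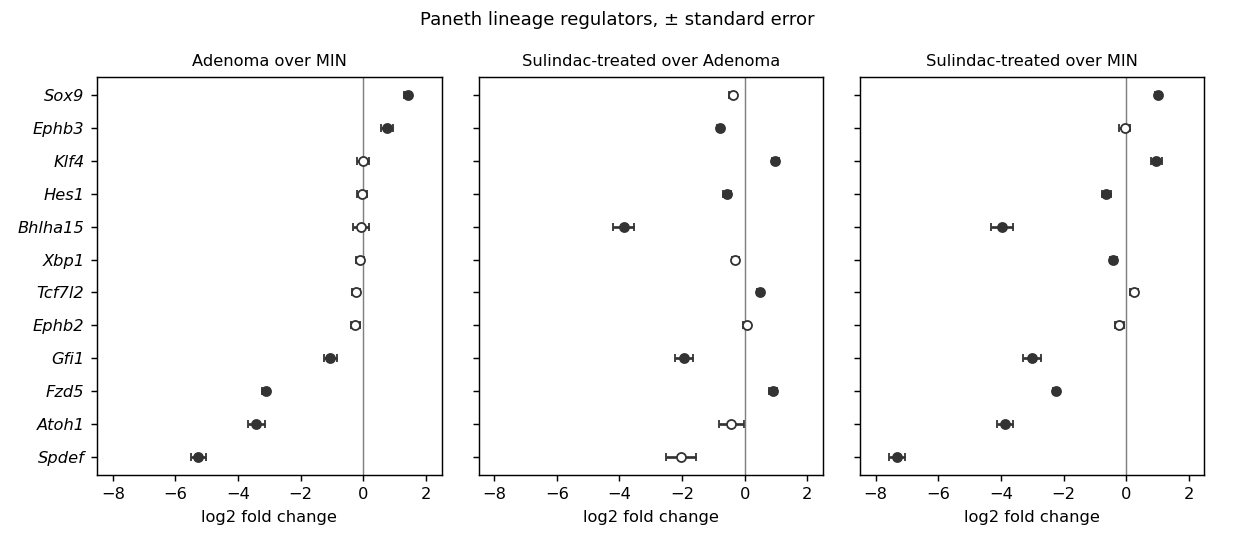
log2 fold change with SE of 12 regulators of the Paneth cell lineage in the 3 comparisons. Filled circles passed the 1% FDR. Sox9 (1.42) and Ephb3 (0.76) lie above 0 in Adenoma over MIN, where Atoh1 (-3.43) and Spdef (-5.26) lie far below, and Bhlha15 is at -0.07 there and at -3.87 in Sulindac over Adenoma.

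Markers of other cells moved along, when at the 1% FDR 20.1% of all genes were lower and 18.5% higher in Adenoma. Between MIN and Adenoma all 6 goblet markers fell (summed level 1830 to 2053 CPM in MIN, 126 to 231 in Adenoma), as did all 4 enteroendocrine markers (277 to 532 and 0.0843 to 0.168), all 6 enterocyte markers (2441 to 4066 and 4.67 to 5.61) and 2 of 3 tuft cell markers (7.42 to 13.1 and 1.43 to 2.82). All enteroendocrine and most enterocyte markers, the goblet marker Zg16 and the tuft marker Dclk1 passed the low-count filter through their MIN counts alone. Of 4 stem cell markers, Lgr5 and Olfm4 fell and Ascl2 rose (summed level 1121 to 2224 and 340 to 588). Of 8 Wnt targets, 7 rose and 0 fell (413 to 597 and 2383 to 2998). With sulindac 3 of them fell, against 9.10% of all genes. Leukocyte markers summed to at most 0.600 CPM and mesenchymal markers to at most 2.28 CPM in any sample, and 3 of the 4 epithelial markers were lower in Adenoma. The part of these cell types and of Wnt target levels in the results on Paneth cell genes was not tested.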

How the data were processed

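RNA-seq of 9 organoid samples was deposited by the authors as 1 table of raw counts per gene symbol, with no normalization. The submitters' processing notes name Bowtie2 2.2.4, RSEM and mm9; their roles are not given in the sources used here. Of the 3 columns for MIN replicate 1, the third equals the other columns added together in 23955 of 23955 rows and stood for that sample. Totals were 30881206 to 48412477 counts. Groups and replicate numbers came from the titles. In 27 rows a date replaced the symbol.

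After filterByExpr and TMM scaling, groups were tested in edgeR 4.0.16 (robust glmQLFit and glmQLFTest, R 4.3.3) at an FDR of 1%, fitting only the 2 groups compared. SE was taken as log2 fold change over the square root of F. Fold changes of means use CPM. On simulated counts for Adenoma over MIN (13744 genes, 200 changed by 2 on the log2 scale), 192 were recovered (96%) with 3 false calls. The simulation gave every gene 1 fixed spread, below that of most members in Adenoma (coefficient of variation 71.9% for Ang4). Its recovery therefore does not carry over to genes with a wider spread. Deviations from the group means correlated weakly across genes between MIN and Adenoma samples of 1 number (0.126, 0.113 and 0.192). Samples of different numbers gave -0.149 to 0.068. Deviations within a group cancel in sum, so these correlations are not independent. Whether a shared number means a shared mouse is not given.

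Alternatives were RLE factors, library size alone, no filter, at least 10 counts in every sample, 1 fit of all samples, a replicate block, each sample left out, DESeq2 1.42.0, an FDR of 5%, glmTreat with a 2-fold minimum and, added after seeing the data, older-named defensin rows in the sum. Transcripts and gene positions came from GENCODE M21 (GRCm38) and promoters from RefSeq. Members and lists were chosen with earlier results of these data known. Named were all members, the 3 highest other defensins and metalloproteinases, the 8 other Paneth products with the largest change, regulators past the threshold and the 5 genes most like Lyz1 and Mmp7.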

Additional observations from a re-analysis of the deposited data

How the results depend on the processing

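No fold change of a member or of the defensin sum changed sign under any alternative run. Adenoma over MIN and Sulindac over MIN kept 7 or 8 members lower under every one, 7 with at least 10 counts in every sample because Defa-rs7 then goes untested. Ang4 alone lost its call between Adenoma and MIN, without the filter (adjusted p = 0.0244, edgeR) and with glmTreat (0.0258) among others. For Sulindac over Adenoma, the members called lower numbered 3 without the filter, 2 with glmTreat, 8 with DESeq2 and 2 to 8 with each sample left out. The defensin sum was then -1.80 without the filter (adjusted p = 0.0266, edgeR), -1.82 with glmTreat (0.113) and -2.13 to -1.41 with each sample left out. The cause was not tested.

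Over all genes, glmTreat called 1038 higher and 1330 lower for Adenoma over MIN, 89 and 131 for Sulindac over Adenoma, and 942 and 1459 for Sulindac over MIN. For Sulindac over Adenoma, 1078 higher and 1179 lower became 603 and 1983 with library size alone, 2034 and 2374 at an FDR of 5%, 1775 higher with DESeq2, and 423 to 1403 higher and 386 to 1488 lower with each sample left out. The balance of higher against lower genes turned in some alternatives: for Adenoma over MIN, 2549 higher and 2765 lower became 3108 and 2282 with library size alone and 2043 and 1920 with at least 10 counts, and for Sulindac over Adenoma 1142 and 1141 with RLE size factors, 1271 and 1243 without the filter, 1775 and 1738 with DESeq2 and 423 and 386 without Sulindac replicate 3. Adding older-named rows moved the defensin sum to -7.04, -1.88 and -8.93 in the 3 comparisons.

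With the replicate block, Adenoma over MIN kept 8 members lower and 1 higher (2531 genes higher, 2733 lower), and the block changed no call of a member there. Whether the numbers pair Sulindac with the other groups is not known either. Correlations of same-numbered samples were 0.253, 0.208 and -0.074 with Adenoma, and -0.030, 0.396 and 0.252 with MIN. Samples of different numbers gave -0.358 to 0.130 with Adenoma and -0.335 to 0.104 with MIN. The block then gave 8 members lower than Adenoma, with Lyz1 (adjusted p = 0.00329, edgeR) and Defa22 (0.00584) past the threshold (872 genes higher, 1061 lower), and 8 lower than MIN (3280 genes higher, 3791 lower). For Defa-rs7 in Adenoma, 0 counts allow up to 3 per library by counting error. That bound holds for the row and not for the transcript, whose 50-base stretches all occur in Defa23 too.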

Other observations

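Markers of position along the gut differed between MIN and Adenoma, and none of them is a Paneth cell gene. Pdx1, a factor of the duodenum, had a mean of 0.303 CPM over the MIN samples, 11.6 CPM over Adenoma and 13.1 CPM over Sulindac (log2 fold change of Adenoma over MIN 5.26, adjusted p = 2.14e-06, edgeR). Gata4 and Onecut2, also proximal, fell by 0.72 and 1.49 on the log2 scale. The ileal genes Fabp6 and Slc10a2 were at 4.62 and 6.15 CPM in MIN and at 0.00936 and 0.047 CPM in Adenoma. The segment of gut is not given for any group, and its part in the levels of Paneth cell genes was not tested.

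Among 30 defensin rows with counts, 1 pair (Gm15308 and Gm21002, older names of Defa32 and Defa33) held identical counts in all 9 samples, and no Paneth member was in it. Nupr1, a stress response gene on the list of Paneth products, was the only 1 of its 18 tested genes called higher with sulindac. It went from 9.92 to 64.7 CPM (log2 fold change 2.71, SE 0.40, adjusted p = 0.00174, edgeR), after a fall from 75.2 CPM in MIN. It was named after its values were seen.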
